A study of Mus musculus with 4 samples.

Results

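The transcripts of Polycomb and trithorax group genes were compared between c-Jun knockout and wild-type mouse epiblast-like stem cells (iEpiSCs). c-Jun is a partner in AP-1, a family of dimeric transcription factors. The 40 genes were taken by symbol from the gene tables: subunits of Polycomb repressive complexes 1 and 2 (PRC1 and PRC2), subunits of the MLL complexes, and an H3K27 demethylase, Kdm6b. All 40 were found among the 29267 genes listed, and all 40 passed the filter on low counts that left 12598 genes to test. Both groups were iEpiSCs converted from embryonic stem cells that had been kept in 2i and LIF, and they differed by genotype, c-Jun-/- (called knockout here) against wild type. Conversion used Activin A and bFGF, both at 20 ng/ml, together with the Wnt pathway inhibitors XAV939 at 2 µM and IWR-1 at 2.5 µM. A replating time of 8 hours and colonies at days 4 to 5 were recorded alike for all 4 libraries. Each genotype had 2 libraries, numbered 2 and 3. The labels state neither the clone or line of either genotype, nor the part of Jun that was removed, nor whether the replicates are separate cultures, and each p-value reflects no more than the spread among these libraries. Genotype and cell line cannot be told apart in this design. In these bulk samples, fewer cells that express a gene and less of its RNA per cell cannot be told apart either.

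PRC2 places methyl groups on lysine 27 of histone H3, a mark of silenced developmental genes. PRC1 places ubiquitin on histone H2A and compacts chromatin, and its variants are told apart by which PCGF protein they hold. The MLL complexes of the trithorax group methylate lysine 4 of histone H3 and counter Polycomb silencing, as do demethylases of H3K27. In pluripotent cells many promoters of lineage genes carry both marks at once, and this state keeps them low but ready to be switched on.

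The knockout libraries held 6341342 and 4666559 expected counts, and the wild-type libraries 5027635 and 5339937. Jun itself stood at 28.9 and 29.6 CPM (expected counts scaled to library size) in knockout libraries, against 106 and 121 CPM in wild-type libraries. Of 8 primed epiblast markers all were detected, with summed levels of 1661 and 1679 TPM (a level per transcript length) in knockout and 1953 and 1928 TPM in wild-type libraries. Of these 8 markers 6 were called lower in knockout, among them Otx2 (-1.18 ± 0.11, edgeR adjusted p = 1.91e-09), Cldn6 (-0.51 ± 0.07) and Zic2 (-0.50 ± 0.09). The other lower markers were Fgf5 (-0.33 ± 0.07), Pou3f1 (-0.33 ± 0.09) and Dnmt3b (-0.19 ± 0.05), and 1 marker was called higher, Pou5f1 (0.21 ± 0.06). The calls of the 6 lower markers held in 10 to 15 of 15 alternatives and that of Pou5f1 in 11. Of 8 naive markers, Dppa3, Nr0b1, Prdm14 and Tcl1 were at 0 in every library, and the list summed to 6.08 to 10.6 TPM in knockout and 5.88 to 7.13 TPM in wild-type libraries. Fibroblast markers summed to 30.4 and 41.1 TPM in knockout and to 46.0 and 48.7 TPM in wild type. Extraembryonic endoderm markers summed to 206 to 218 TPM in knockout and 234 to 253 TPM in wild type, with Afp and Ttr at 0. Nearly all of this sum was Foxa2, at 203 and 189 TPM in knockout and 210 and 225 TPM in wild type. Neural markers summed to 140 and 158 TPM in knockout and 116 and 139 TPM in wild type. Of 7 tested neural markers 3 were called higher in knockout, Tubb3 (2.13 ± 0.48) and Sox1 (1.25 ± 0.25), both on chromosome 8, and Pax6 (2.13 ± 0.74). Pax6 had only 13 and 19 counts in knockout and 5 and 2 in wild type. Its call held in 3 of 15 alternatives, against 14 of 14 for Tubb3 and 12 of 14 for Sox1. With chromosome 8 centred, Tubb3 stood at 1.62 and still passed (edgeR adjusted p = 0.0231), while Sox1 at 0.74 did not (0.0546). Among 6 tested fibroblast markers Col3a1 was called higher and Postn and Dcn lower, and among 4 tested endoderm markers Gata6 was called lower. The part of cell state and of other cell types in the results was not tested. Chromosome 8 took 6.26% and 6.31% of the counts in knockout libraries and 4.45% and 4.48% in wild-type libraries. Of the 40 genes 1, Ash2l, lies on this chromosome. Effects of the shift on genes of other chromosomes were not tested.

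Across the 40 genes, few differences between the genotypes were resolved. Ash2l and Rbbp7 were higher in knockout, Kdm6b and Kmt2c were lower, and 36 did not pass (edgeR quasi-likelihood test, Benjamini-Hochberg adjusted p under 0.05 over all 12598 genes). The 2 higher genes compare with 8.21% of all tested genes called higher, and the 2 lower genes with 7.32% called lower. Together 10% of the 40 genes were called, against 15.5% of all tested genes, and 10 of the 40 had an unadjusted p under 0.05. The share of all tested genes under that unadjusted level was not taken, but it cannot be below the 15.5% called. Counts at the unadjusted level, here and below, are therefore a description only. The median log2 fold change, knockout over wild type, was 0.00954 over the 40 genes and 0.00151 over all tested genes. Its median size without sign was 0.147 over the 40 genes and 0.195 over all. The 95% interval of the fold change stayed inside a 1.5-fold change either way for 30 of the 36 genes that did not pass. With those called it stayed inside for 32 of 40, against 51.8% of all tested genes. The intervals of Phf19, Ring1, Pcgf1, Pcgf5, Pcgf6 and Cbx8 reached past that size, so a 1.5-fold change was within the error for these 6 genes. The CPM values of the genotypes did not overlap for 13 genes that were higher and 9 that were lower in knockout, against 27.0% and 26.9% of all tested genes.

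**Figure D1:**
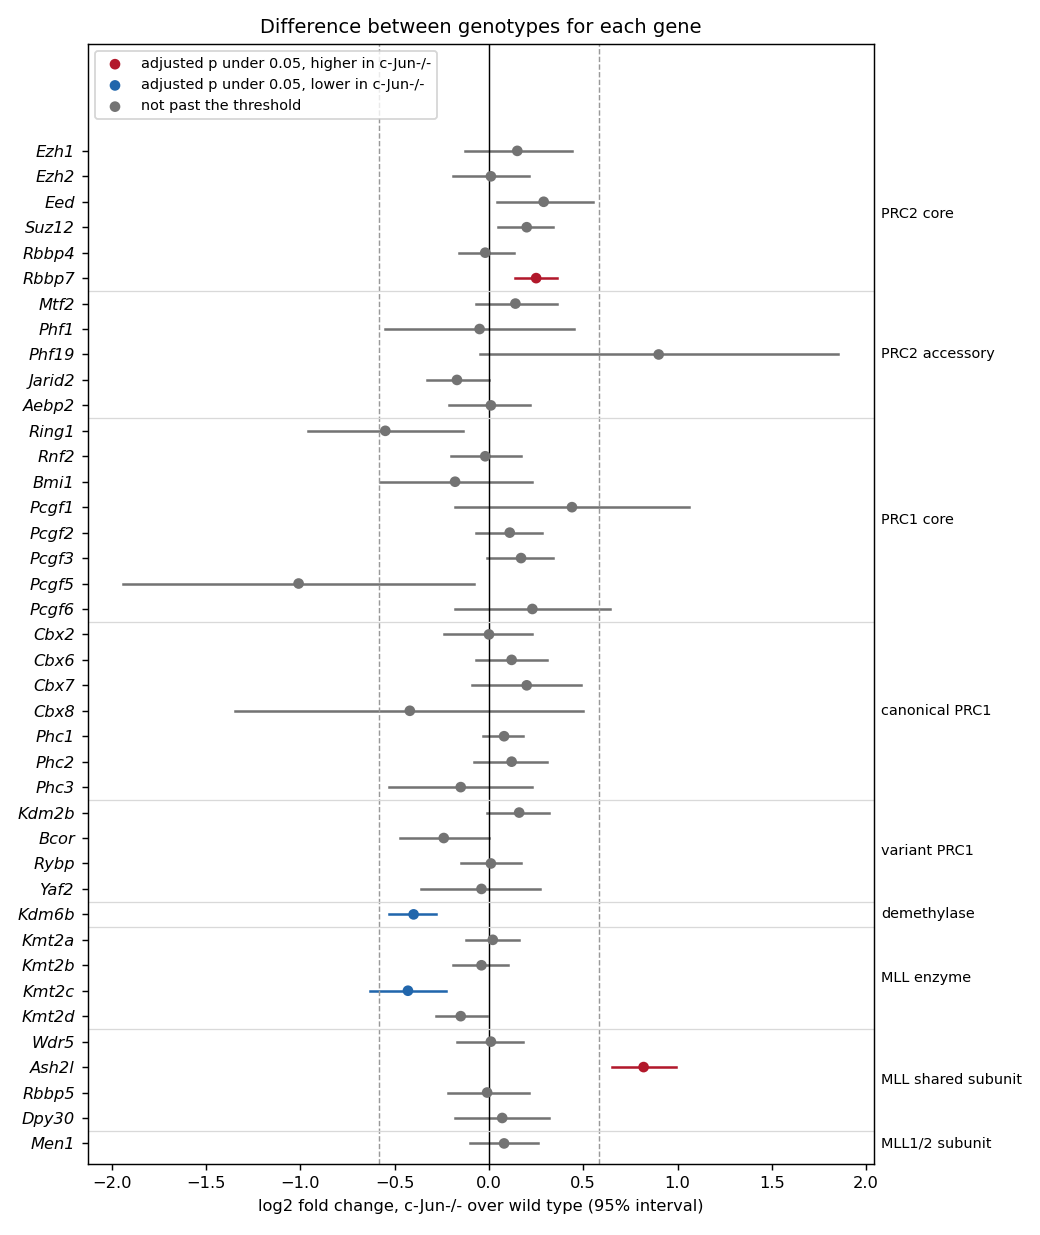
Log2 fold change of each of the 40 genes, knockout over wild type, with its 95% interval, grouped by role. Dashed lines mark a 1.5-fold change; Ash2l, at 0.82, lies beyond them, while Kdm6b and Kmt2c lie at -0.40 and -0.43 and Rbbp7 at 0.25.

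The levels of the 40 genes spanned a wide range. Their median level was 51.7 TPM, against 26.4 TPM over all tested genes, and 29 of the 40 lay above that median. Phc1, a scaffold of PRC1 that can polymerise, was at the top with 876 and 866 TPM in knockout and 954 and 971 TPM in wild-type libraries. Rbbp7 came next, at 606 TPM or more in every library. At the low end stood Phf19, at 3.30 and 2.69 TPM in knockout and 1.96 and 3.04 TPM in wild type, with Cbx8 and Pcgf5. These 3 genes had at most 41 expected counts in any library, so their fold changes are poorly determined.

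**Figure D2:**
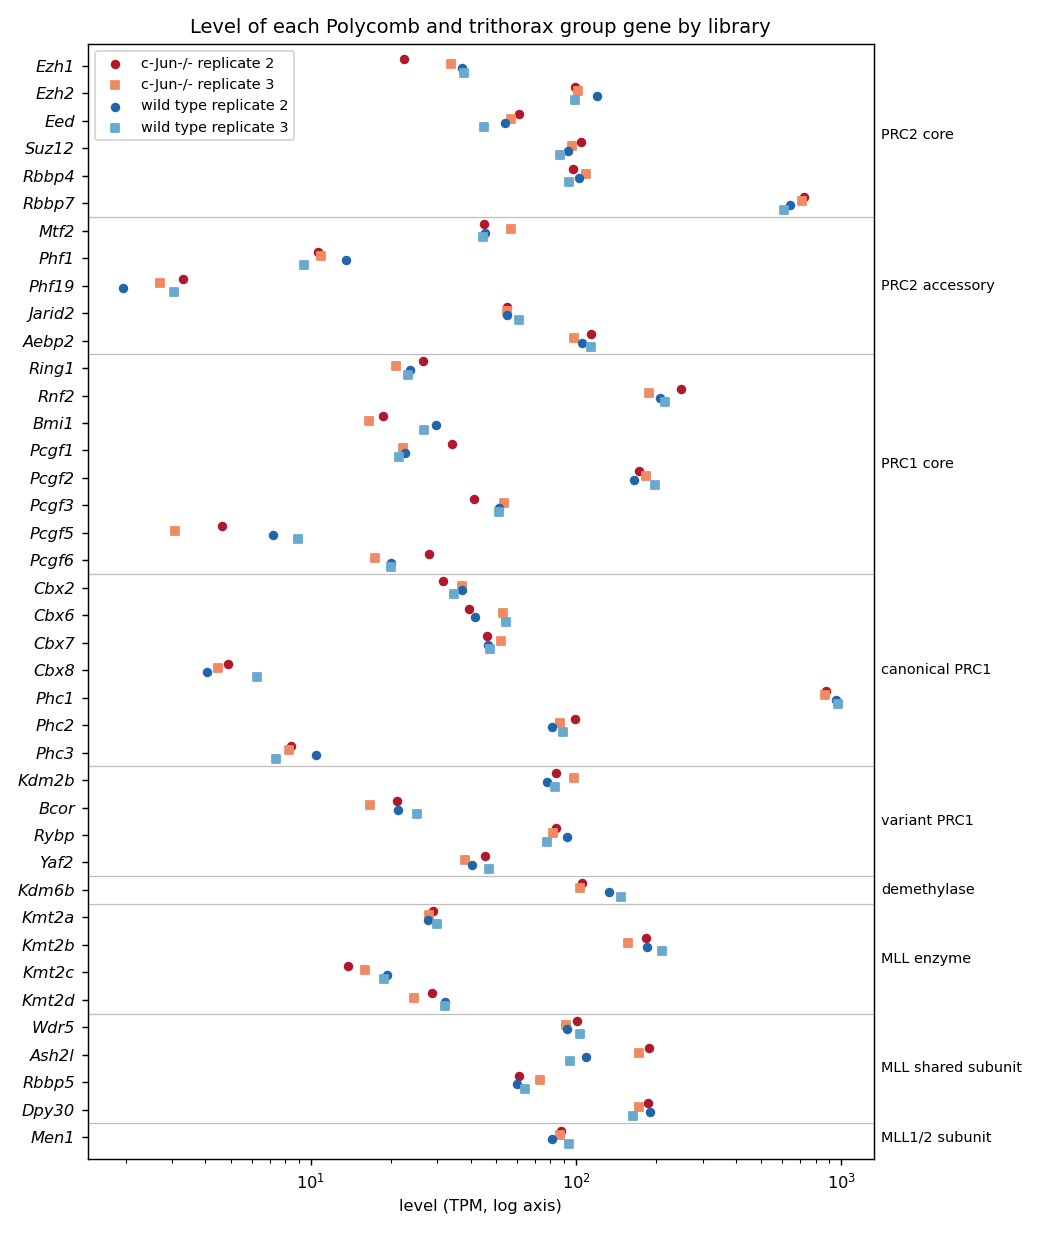
Level of each gene in each of the 4 libraries in TPM on a log axis, with knockout points in red and wild-type points in blue. The order of levels is much the same in both genotypes, with Phc1 at the top and Phf19 at the bottom.

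The core of PRC2 is built of an EZH methyltransferase, EED, which binds the mark and stimulates the enzyme, SUZ12, which holds the complex together, and the histone binders RBBP4 and RBBP7. Of the 6 core genes 1 was called, Rbbp7. It had 648 and 663 CPM in knockout libraries, against 560 and 541 CPM in wild-type libraries. Both knockout values lay above both wild-type values, and the log2 fold change was 0.25 ± 0.05 (SE, n = 2 per genotype; edgeR adjusted p = 0.000857). Rbbp7 lies on the X chromosome (162760402 to 162779092, plus strand, GRCm38), whose 443 tested genes had a median log2 fold change of -0.0131. Its partner Rbbp4 stood at -0.02 ± 0.07. RBBP4 and RBBP7 serve other chromatin complexes too, among them NuRD and CAF-1, so their transcript levels are not a measure of PRC2 alone. The share of Rbbp7 in the Rbbp4 and Rbbp7 pair was 88.1% and 86.8% of TPM in knockout, against 86.3% and 86.5% in wild type.

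Suz12 and Eed had higher values in both knockout libraries without passing. Suz12 had 242 and 230 CPM in knockout libraries, against 212 and 201 CPM in wild type, with a log2 fold change of 0.20 ± 0.07 (edgeR adjusted p = 0.0625). Suz12 passed in 2 of 15 alternatives, 1 of them with chromosome 8 genes left out (edgeR adjusted p = 0.0495). It did not pass with chromosome 8 centred (edgeR adjusted p = 0.0726), with effective length as an offset (0.197) or with DESeq2 (adjusted p = 0.219). Eed had 62.8 and 60.9 CPM in knockout, against 55.0 and 46.1 CPM in wild type, at 0.29 ± 0.13 (edgeR adjusted p = 0.119). For both genes the groups did not overlap.

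Ezh2, the methyltransferase that dominates in dividing cells, lay close to no difference. It had 112 and 123 CPM in knockout and 129 and 105 CPM in wild type, and its log2 fold change was 0.01 ± 0.10 with an interval of -0.19 to 0.21. Per length, Ezh2 stood at 99.4 and 102 TPM in knockout and 120 and 99.3 TPM in wild type. Suz12 stood at 104 and 96.8 TPM in knockout and 93.01 and 87.3 TPM in wild type, so these core transcripts were present at similar levels. The ratio of Ezh2 to Suz12 TPM was 0.953 and 1.05 in knockout and 1.29 and 1.14 in wild type. That of Eed to Suz12 was 0.582 and 0.588 in knockout and 0.582 and 0.514 in wild type.

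Ezh1, the weaker methyltransferase that is better known from resting cells, gave opposite readings by count and per length. By count it had 42.2 and 50.5 CPM in knockout, against 41.7 and 41.2 CPM in wild type, a log2 fold change of 0.15 ± 0.14 that did not pass (edgeR adjusted p = 0.544). Per length it stood at 22.4 and 33.9 TPM in knockout, below 37.3 and 37.9 TPM in wild type. Between the units stands the effective length that RSEM estimated for the gene from its mix of transcripts, 3368 and 2593 bases in knockout and 2048 and 1970 bases in wild type. The share of Ezh1 in the EZH pair was 18.4% and 24.9% of TPM in knockout and 23.7% and 27.6% in wild type, and the groups overlapped. Ezh2 thus made up at least 72.4% of EZH TPM in each library.

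The accessory subunits divide PRC2 into a form with a Polycomb-like protein (MTF2, PHF1 or PHF19, which bind CpG-rich DNA) and a form with JARID2 and AEBP2. None of these 5 genes passed the edgeR test, and 0 had an unadjusted p under 0.05. Mtf2 held 76.3% and 80.7% of the Polycomb-like TPM in knockout and 74.6% and 78.1% in wild type. Phf1 took 18.1% and 15.5% in knockout and 22.2% and 16.5% in wild type, and Phf19 the small remainder. Jarid2 had 141 and 154 CPM in knockout, against 165 CPM in both wild-type libraries, at -0.17 ± 0.08 (edgeR adjusted p = 0.186). Aebp2 differed by 0.01 ± 0.10. Aebp2 alone held 50.1% and 44.0% of the TPM of all 5 accessory genes in knockout and 47.7% and 49.2% in wild type.

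Every PRC1 complex pairs a RING1 ubiquitin ligase with a PCGF protein. Rnf2, which encodes RING1B, made up 90.4% and 90.0% of the TPM of the ligase pair in knockout and 89.8% and 90.3% in wild type. Rnf2 had 137 and 119 CPM in knockout and 132 and 128 CPM in wild type, with a log2 fold change of -0.02 ± 0.09. Its paralog Ring1 had 18.9 and 13.9 CPM in knockout, below 24.3 CPM in both wild-type libraries, at -0.55 ± 0.20 (edgeR adjusted p = 0.06). Without knockout replicate 2 the log2 fold change of Ring1 was -0.80 (edgeR adjusted p = 0.0226) and without knockout replicate 3 it was -0.36 (0.371). The effective length of Ring1 moved with its count. It was 1281 and 1157 bases in knockout and 1888 and 1894 bases in wild type, and per length Ring1 stood at 26.4 and 20.9 TPM in knockout and 23.6 and 23.2 TPM in wild type. With effective length as an offset, the log2 fold change of Ring1 was 0.07 (edgeR adjusted p = 0.902).

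Among the 6 PCGF genes none passed. Pcgf2, which encodes MEL18 and marks a canonical PRC1, held 57.7% and 62.0% of PCGF TPM in knockout and 55.8% and 60.8% in wild type. Pcgf3 followed with 13.8% and 18% in knockout and 17.3% and 15.6% in wild type. By counts not divided by length Pcgf3 led, with 44.3% and 49.4% in knockout and 46.3% and 44.4% in wild type. Pcgf2 then held 37.9% and 37.5% in knockout and 37.2% and 38.8% in wild type. The effective length was 1193 to 1393 bases for Pcgf2 and 5309 to 6788 bases for Pcgf3. Bmi1, the paralog of Pcgf2 in canonical PRC1, held 6.26% and 5.57% of PCGF TPM in knockout, below 10.1% and 8.19% in wild type. By count the same gene was much closer, at 18.2 and 17.8 CPM in knockout and 19.2 and 21.6 CPM in wild type (-0.18 ± 0.20, edgeR adjusted p = 0.626). Its effective length was 1744 and 1883 bases in knockout and 1180 and 1463 bases in wild type. Pcgf1, which recruits BCOR and KDM2B, and Pcgf6, the PCGF of a complex at germline genes, held between 5.88% and 11.4% of PCGF TPM in the 4 libraries. Pcgf1 differed by 0.44 ± 0.30 and Pcgf6 by 0.23 ± 0.20, with overlapping groups per length.

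Pcgf5 was the scarcest of the PCGF genes and had the largest fitted difference of the 40, without passing. It had 22 and 11 counts in knockout and 27 and 36 counts in wild type, or 3.49 and 2.39 CPM against 5.34 and 6.72 CPM. The log2 fold change was -1.01 ± 0.46 with an interval from -1.94 to -0.08 (edgeR adjusted p = 0.146), and no alternative brought it past the threshold. PCGF5 is a partner of variant PRC1 with PCGF3, its close relative, whose transcript was at 157 and 181 CPM in knockout and 151 and 150 CPM in wild type.

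Canonical PRC1 adds a CBX protein, which reads methylated H3K27, and a PHC scaffold. No gene of the 7 passed the edgeR test, and 0 had an unadjusted p under 0.05. Cbx7, Cbx6 and Cbx2 shared most of the CBX TPM with similar parts. Cbx7 held 37.9% and 35.5% in knockout and 36.0% and 33.1% in wild type, and Cbx6 held 32.2% and 36.1% in knockout and 32.1% and 38.2% in wild type. Their order changed between libraries of the same genotype, so Cbx7 and Cbx6 were not separated by these data. Apobec3, on the strand opposite Cbx7, had 592 and 490 counts in knockout and 155 and 183 in wild type. Cbx7 had 298 and 236 counts in knockout and 244 and 201 in wild type. Whether reads of Apobec3 entered the count of Cbx7 was not tested. Cbx2 held 25.8% and 25.3% in knockout and 28.7% and 24.3% in wild type, and Cbx8 less than 5% in each library. Phc1 held 89.1% and 90.1% of PHC TPM in knockout, just below 91.2% and 91.0% in wild type, while Phc2 held 10.1% and 9.04% in knockout and 7.77% and 8.34% in wild type. By count Phc1 differed by 0.08 ± 0.05 and Phc2 by 0.12 ± 0.10, and neither passed.

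Variant PRC1 replaces CBX by RYBP or YAF2, and its best known form adds KDM2B, which binds unmethylated CpG islands, and BCOR. Rybp held 65.0% and 68.3% of the TPM of the Rybp and Yaf2 pair in knockout and 69.5% and 62.2% in wild type. Kdm2b had 164 and 168 CPM in knockout, above 147 and 151 CPM in wild type, at 0.16 ± 0.08 (edgeR adjusted p = 0.202). Bcor had 64.7 and 59.2 CPM in knockout, below 69.2 and 77.0 CPM in wild type, at -0.24 ± 0.11 (edgeR adjusted p = 0.18). Neither passed, although the genotypes did not overlap for either gene.

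Kdm6b, which encodes the demethylase JMJD3 that removes methyl groups from H3K27, was lower in knockout. It had 372 and 383 CPM in knockout libraries, against 471 and 527 CPM in wild-type libraries. The groups were well apart, with a log2 fold change of -0.40 ± 0.06 (edgeR adjusted p = 9.46e-06), a level 0.756 times that of wild type. Without each library in turn the log2 fold change ran from -0.49 to -0.32 and the call held. Kdm6b lies on chromosome 11 (69398508 to 69413675, minus strand, GRCm38), where the 1043 tested genes had a median of -0.0204. A gene on the opposite strand, Kdm6bos, had 5 to 29 counts, few beside the 1760 to 2825 of Kdm6b. The other H3K27 demethylase, Kdm6a, did not pass, with 108 and 110 CPM in knockout and 106 and 97.4 CPM in wild type (0.11 ± 0.09, edgeR adjusted p = 0.516). Its Y-linked counterpart Uty, whose demethylase activity is weak, stood at -0.04 ± 0.16. Per length, the ratio of Kdm6b to Kdm6a TPM was 2.84 and 2.79 in knockout, against 3.80 and 4.04 in wild type, and the groups did not overlap.

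Of the 4 MLL enzymes, Kmt2c was called lower. KMT2C and KMT2D place a mono-methyl mark on H3K4 at enhancers, while KMT2A and KMT2B act mainly at promoters. Kmt2c had 78.3 and 89.8 CPM in knockout libraries, against 114 and 112 CPM in wild-type libraries. The log2 fold change was -0.43 ± 0.10 (edgeR adjusted p = 0.00198). Without knockout replicate 2 it was -0.33 and the call was lost (edgeR adjusted p = 0.0801), as it was with effective length as an offset (-0.32, edgeR adjusted p = 0.184). Kmt2d, its closest relative, had 273 and 276 CPM in knockout and 297 and 310 CPM in wild type, at -0.15 ± 0.07 (edgeR adjusted p = 0.141). Kmt2a (0.02 ± 0.07) and Kmt2b (-0.04 ± 0.07) did not pass. Their intervals ran from -0.12 to 0.16 and from -0.19 to 0.10.

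Per length Kmt2b led the enzymes by far. It held 72.1% and 69.6% of the TPM of the 4 genes in knockout and 70.0% and 72.3% in wild type. Kmt2a held 11.3% and 12.4% in knockout, above 10.5% and 10.2% in wild type. Kmt2d held 11.2% and 10.9% in knockout and 12.2% and 11% in wild type, and Kmt2c 5.42% and 7.09% in knockout and 7.37% and 6.47% in wild type. The effective length used for Kmt2b was 2228 to 2684 bases, far shorter than the 16083 to 16235 bases used for Kmt2a, and the order of the enzymes per length depends on these estimates. By counts not divided by length, Kmt2b took 27.9% in both knockout libraries and 26.2% and 27.4% in wild type. Kmt2d led by that measure, with 32.2% and 31.8% in knockout and 33.4% and 32.7% in wild type. Kmt2a also stood above Kmt2b in each library.

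The shared subunits WDR5, RBBP5, ASH2L and DPY30 form a platform that all MLL enzymes need for activity. Ash2l was the only one of them called. It had 236 and 218 CPM in knockout libraries, against 138 and 121 CPM in wild-type libraries, and the log2 fold change was 0.82 ± 0.08 (edgeR adjusted p = 5.44e-09), a level 1.76 times that of wild type. Ash2l lies on chromosome 8 (25815996 to 25847694, minus strand, GRCm38), where 57.2% of the 684 tested genes were called higher and the median log2 fold change was 0.513. With chromosome 8 genes centred on that median, Ash2l stood at 0.31 and still passed (edgeR adjusted p = 0.0105). Wdr5 (0.01 ± 0.09), Rbbp5 (-0.01 ± 0.10) and Dpy30 (0.07 ± 0.12) did not pass. Men1, which encodes menin, the partner of KMT2A and KMT2B, had 121 and 125 CPM in knockout and 114 and 119 CPM in wild type (0.08 ± 0.09). Per length, Ash2l stood at 188 and 173 TPM in knockout and 109 and 94.7 TPM in wild type. Wdr5 stood at 101 and 91.6 TPM in knockout and 92.8 and 104 TPM in wild type, so the transcript of Ash2l was above that of Wdr5 in both knockout libraries, but in wild type only in replicate 2.

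**Figure D3:**
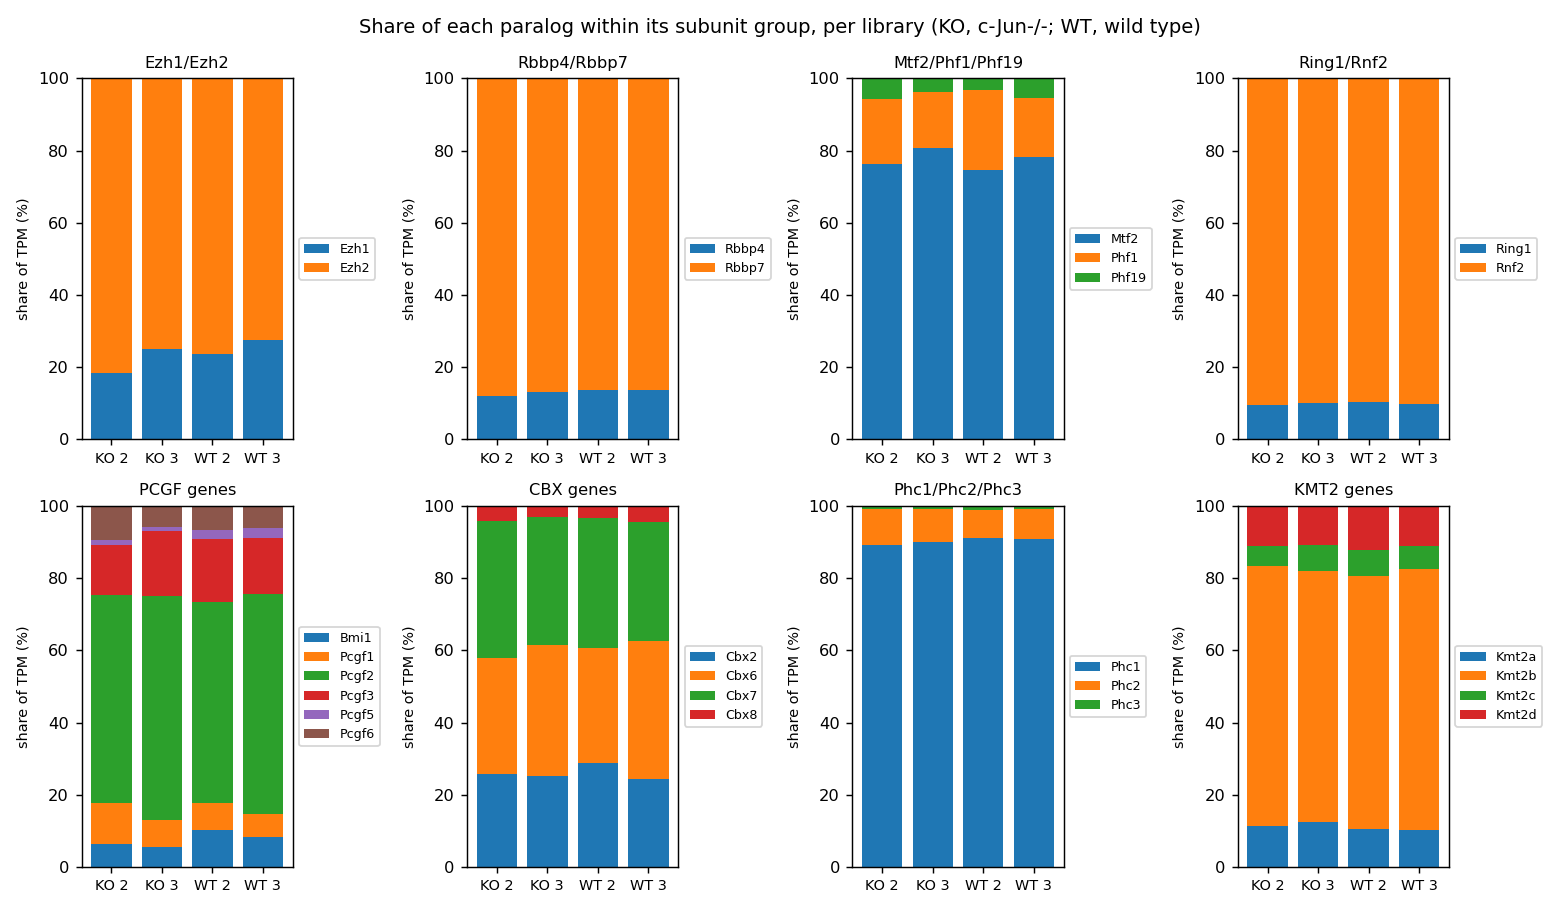
Share of each paralog in the summed TPM of its subunit group, with 1 bar per library, with the 2 knockout bars left of the 2 wild-type bars. By TPM the dominant paralog (Ezh2, Rbbp7, Mtf2, Rnf2, Pcgf2, Phc1 and Kmt2b) was the same in all 4 libraries, and only the CBX genes had no single leader. By counts not divided by length, Pcgf3 led the PCGF genes, Kmt2d the KMT2 genes and Cbx6 the CBX genes.

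Paralog use was set out as each gene's share of its subunit group. Of 30 shares in 10 subunit groups, 23 overlapped between the genotypes and 7 did not, those of Rbbp4, Rbbp7, Bmi1, Pcgf5, Phc1, Phc2 and Kmt2a. The largest mean difference was 4.01 percentage points, that of the EZH pair, where the groups overlapped. With 2 libraries against 2 an exact two-sided permutation test cannot go below 0.333. That is also the probability that labels drawn at random separate a share in either direction. The shares, and the counts of those that do not overlap, are therefore given as a description. Shares of a group also mirror each other, as those of Rbbp4 and Rbbp7 (-1.02 and 1.02 percentage points) and nearly those of Phc1 and Phc2 (-1.52 and 1.51). By counts not divided by length, 14 of the 30 shares did not overlap, among them those of Ring1 and Kmt2c.

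The estimated transcript length itself differed between the genotypes for a few members. The effective lengths of Ezh1, Ring1 and Bmi1 did not overlap and differed by over 1.25 times, a description that holds for 3 of the 40 genes and for 4.71% of all tested genes. The mean ratio, knockout over wild type, was 1.48 for Ezh1, 1.37 for Bmi1 and 0.645 for Ring1. Gene tables hold no isoform values, so single transcripts were not analysed here. For these 3 genes, counts and TPM gave differences of unlike size or direction.

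**Figure D4:**
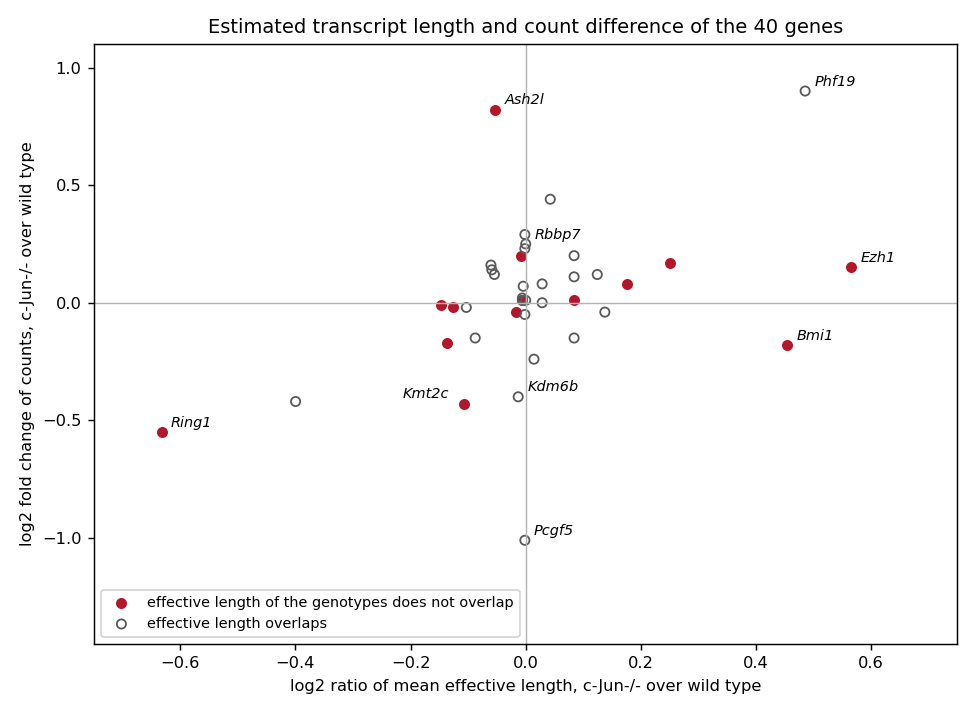
Log2 ratio of the mean effective length on the horizontal axis against the log2 fold change of counts on the vertical axis, both knockout over wild type, for the 40 genes. Ezh1 and Bmi1 lie to the right and Ring1 to the left, at length ratios of 1.48, 1.37 and 0.645, while Ash2l, Kdm6b and Rbbp7 lie near the vertical line of equal length.

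The promoter windows of the members are shown because AP-1, of which Jun is a part, binds the motif TGANTCA, and related dimers the motif TGACGTCA. Windows were the 250 bases before each start in RefSeq (GRCm38.p6). They were matched for 33 of the 40 genes, and Kdm6b and Ash2l were not among them. TGANTCA, which reads as the same motif on both strands, was found in the window of 1 of the 33 genes, Pcgf3, against 7.82% of all genes with a window. TGACGTCA was found in 1, Cbx8, against 1.77% of all. GGGCGG, the GC box, was found on either strand in 25 of the 33, against 35.4% of all. CCAAT was found on either strand in 14 of the 33, against 37.5% of all. The median window of the members held 20.5 CG dinucleotides, against 6 over all windows. A gene counted if any of its windows matched, with 50 windows for the 33 genes and 32851 for all 27025. These 27025 genes include many that were not among the genes tested here. Whether expressed genes in general share the GC boxes and CG content was not tested. Rbbp7 and Kmt2c, the called genes that have a window, are shown with each GGGCGG or its complement in capitals.
Rbbp7, chrX:162760122-162760371, plus strand: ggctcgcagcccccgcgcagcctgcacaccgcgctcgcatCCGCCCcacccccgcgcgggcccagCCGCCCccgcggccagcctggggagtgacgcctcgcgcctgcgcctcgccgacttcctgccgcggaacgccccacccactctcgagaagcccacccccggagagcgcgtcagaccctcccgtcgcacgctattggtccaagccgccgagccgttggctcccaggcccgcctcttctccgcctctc
Kmt2c, chr5:25498784-25499033, minus strand: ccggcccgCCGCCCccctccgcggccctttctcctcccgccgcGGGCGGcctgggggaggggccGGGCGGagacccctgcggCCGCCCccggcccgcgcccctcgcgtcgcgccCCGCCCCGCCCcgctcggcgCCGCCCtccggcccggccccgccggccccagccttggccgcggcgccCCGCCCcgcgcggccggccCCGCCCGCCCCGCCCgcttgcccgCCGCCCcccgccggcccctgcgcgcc
The window of Kmt2c was built almost wholly of G and C, 91.6%, with 12 GC boxes, some of which overlap. That of Rbbp7 held 76.4% G and C with 2. The windows of Pcgf3 and Cbx8 are shown with the matched motif, TGAGTCA in Pcgf3 and TGACGTCA in Cbx8, in capitals.
Pcgf3, chr5:108461009-108461258, plus strand: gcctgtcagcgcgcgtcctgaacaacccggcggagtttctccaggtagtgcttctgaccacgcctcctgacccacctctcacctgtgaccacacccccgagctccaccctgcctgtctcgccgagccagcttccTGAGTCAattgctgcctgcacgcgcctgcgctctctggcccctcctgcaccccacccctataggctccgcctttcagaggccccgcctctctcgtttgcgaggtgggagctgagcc
Cbx8, chr11:119040914-119041163, minus strand: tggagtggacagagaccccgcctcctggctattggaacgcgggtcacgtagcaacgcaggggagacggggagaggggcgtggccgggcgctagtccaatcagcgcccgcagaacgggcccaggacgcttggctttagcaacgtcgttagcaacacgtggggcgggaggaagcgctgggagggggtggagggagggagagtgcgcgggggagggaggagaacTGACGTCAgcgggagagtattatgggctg
The motif began 116 bases before the start in Pcgf3 and 29 bases before it in Cbx8. Neither gene passed, at 0.17 ± 0.08 (edgeR adjusted p = 0.2) for Pcgf3 and -0.42 ± 0.46 (0.61) for Cbx8. A match of letters is a description and shows no binding.

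Further genes of these pathways were counted from lists of known subunits, beside 8.21% of all tested genes called higher and 7.32% called lower. Of 7 tested PRC2 cofactors and H3K36 methyltransferases, 2 were higher, Nsd1 (0.31 ± 0.07, edgeR adjusted p = 0.00244) and Nsd3, a chromosome 8 gene whose value was -0.09 once that chromosome was centred. The call of Nsd3 ended without knockout replicate 2 (0.403) or wild-type replicate 3 (0.118). Of 25 other tested PRC1 genes 3 were higher and 3 lower, with a median log2 fold change of 0.0747. Among the lower genes, Auts2, a partner of PCGF3 and PCGF5, fell to 44.6 and 54.6 CPM in knockout, against 74.2 and 80.4 CPM in wild type (-0.65 ± 0.12, edgeR adjusted p = 0.000199). Scml2 fell as well (-0.64 ± 0.13), with a value of -0.27 at its smallest over the alternatives. The higher genes were Tfdp1 and Csnk2a2, both on chromosome 8 and at 0.20 and -0.06 with it centred, and Mga, a subunit of the PCGF6 complex (0.21 ± 0.07, edgeR adjusted p = 0.0402), which lost its call without knockout replicate 2 (0.493) or wild-type replicate 3 (0.206). All 12 genes listed for the H2A deubiquitinase PR-DUB and its partners, which also held the separate H2A deubiquitinase gene Usp16, were tested. None passed the edgeR test, with 2 at an unadjusted p under 0.05 and 1 that passed in 5 of 15 alternatives. Their median log2 fold change was -0.0402. Of 18 other trithorax and COMPASS genes 3 were lower: Psip1, a chromatin tether of MLL (-0.31 ± 0.06, edgeR adjusted p = 0.000241), the H3K4 methyltransferase gene Setd7 (-0.32 ± 0.08) and Setd1b (-0.35 ± 0.11). Without knockout replicate 2 the calls of Setd7 (0.0592) and Setd1b (0.119) were lost, and that of Setd1b also without knockout replicate 3 (0.106) or wild-type replicate 2 (0.196). Of 6 tested genes listed as H3K4 demethylases, which also held the H3K36 demethylase gene Kdm2a, 1 was lower. This was Kdm5b, with 241 and 238 CPM in knockout and 286 and 296 CPM in wild type (-0.28 ± 0.07, edgeR adjusted p = 0.00295).

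Among genes that Polycomb complexes are known to keep silent, most were at or near 0 in both genotypes. Of 39 Hox genes, none reached the filter on low counts. Their counts summed to 49 and 44 in knockout libraries and 48 and 37 in wild-type libraries, and the highest count of any Hox gene in any library was 8. Of 77 other developmental genes known as Polycomb targets, 45 were below the filter. Among the 32 tested, 6 were higher, 2 were lower and 24 did not pass, with a median log2 fold change of -0.0195, where 8.21% of all tested genes were called higher and 7.32% lower. Leaving out each library in turn gave 3 to 6 higher and 1 or 2 lower, and with effective length as an offset 3 were higher and 0 lower. The higher genes were the B-cell and mesenchyme factor gene Ebf1 (2.56 ± 0.39, edgeR adjusted p = 1.20e-05, and 1.4 at its smallest over the alternatives), Cdkn2b, Cdkn2a, Zic1, Pax9 and Pax6. Runx1 (-0.83 ± 0.18) and Gata6 (-1.15 ± 0.36) were lower.

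Cdkn2b and Cdkn2a encode inhibitors of cell cycle kinases and, from Cdkn2a, ARF. They are neighbouring genes and well known targets of Polycomb. Cdkn2b had 18.7 and 19.8 CPM in knockout libraries, against 7.12 and 7.28 CPM in wild-type libraries (1.41 ± 0.25, edgeR adjusted p = 9.53e-05). Its call held under all 15 alternatives. Cdkn2a had 14.6 and 21.1 CPM in knockout and 9.10 and 7.46 CPM in wild type (1.09 ± 0.26, edgeR adjusted p = 0.00316). Leaving out knockout replicate 3 ended the call (0.0788). Runx1 had 162 and 78 counts in knockout and 221 and 180 counts in wild type. Pax9 had 7.61 and 4.13 CPM in knockout and 0.989 and 1.49 CPM in wild type, and leaving out knockout replicate 2 ended its call (edgeR adjusted p = 0.244). Pax6 was called in only 3 of 15 alternatives. Zic1 was called at 1.33 ± 0.33 and lost its call without knockout replicate 2 (0.0707). Gata6 (edgeR adjusted p = 0.026) lost its call without knockout replicate 2 (0.0592), knockout replicate 3 (0.0776) or wild-type replicate 3 (0.242). With effective length as an offset, and with limma on log2(TPM + 1), the calls of Ebf1, Cdkn2a, Zic1 and Runx1 were lost, as were those of Nsd1, Auts2, Scml2, Setd7, Setd1b, Kdm5b and, among germline genes, Tdrkh. Pax9, Pax6, Gata6 and, among PRC1 genes, Mga fell outside the rule for naming genes and were chosen after their values were seen.

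**Figure D5:**
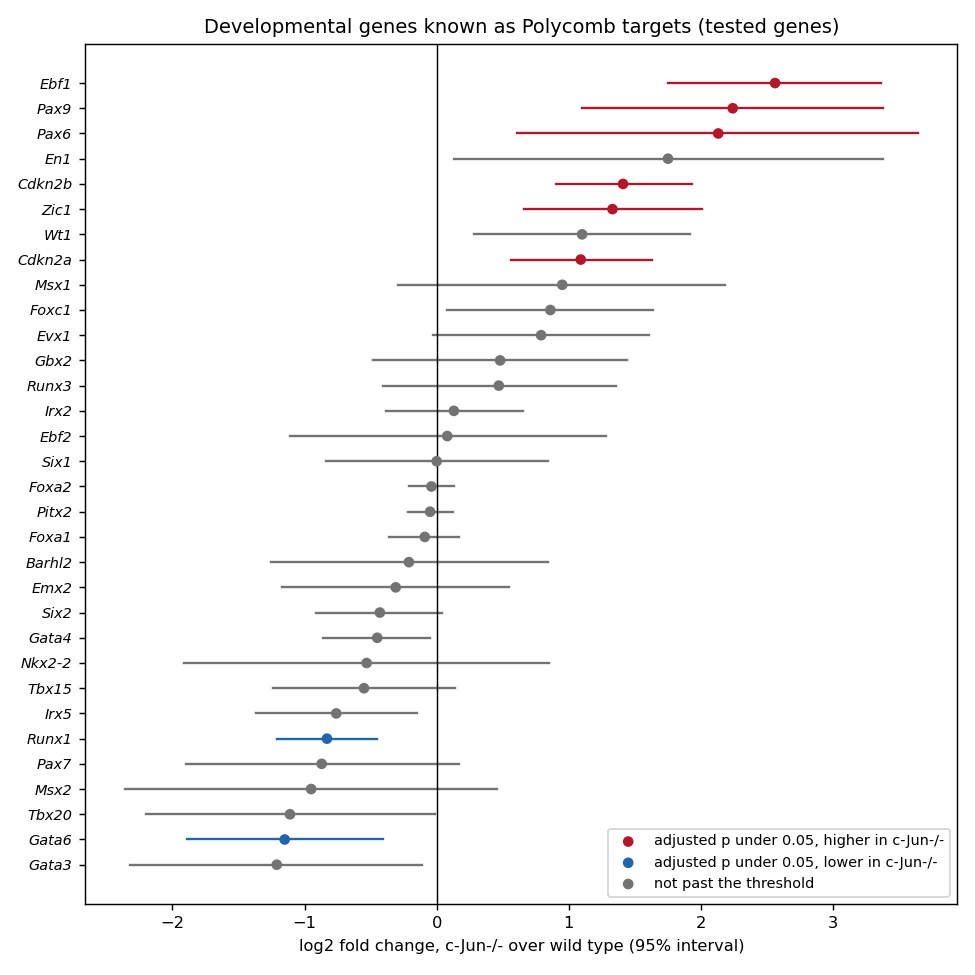
Log2 fold change, knockout over wild type, with its 95% interval for the 32 tested developmental genes known as Polycomb targets. Called genes lie on both sides, from Ebf1 at 2.56 to Gata6 at -1.15.

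Of 22 genes listed as germline genes that the PCGF6 form of PRC1 binds, 4 were tested and 18 were below the filter. Of the latter, 7 were at 0 in every library. Among the 4 tested was Smc3, at 83.9 to 101 TPM in these libraries and so not specific to germ cells. Tdrkh, a Tudor domain protein gene of the piRNA pathway, was lower, with 30.0 and 22.4 CPM in knockout against 45.1 and 43.1 CPM in wild type (-0.73 ± 0.16, edgeR adjusted p = 0.0011).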

How the data were processed

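RNA was sequenced from 4 libraries, 2 c-Jun-/- and 2 wild type, grouped by the genotype label, after TruSeq library preparation. RSEM, Bowtie2 and bcl2fastq with the build mm10 are named in the submitters' processing notes, with no versions. The deposited gene tables hold expected counts, TPM, FPKM (not used here) and effective lengths per gene, per the file headers. No source used here states whether counting used strand, so overlapping genes on opposite strands cannot be told apart. Gene IDs were matched to symbols and positions in an annotation of GRCm38, for 28756 of 29267 genes.

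The authors' expected counts were taken as the nearest whole numbers, low genes were removed by edgeR's filterByExpr (minimum count 10, minimum total 15), libraries were scaled by TMM, and genes were tested with edgeR's quasi-likelihood test, with Benjamini-Hochberg adjustment over all 12598 genes and a threshold of 0.05. CPM values are these counts scaled to library size. Shares of paralogs were taken from the deposited TPM. Between 4666559 and 6341342 expected counts per library were available, where 3 counts equal 0.473 to 0.643 CPM. Intervals from the model rest on 2 libraries per genotype. R 4.3.3, edgeR 4.0.16, limma 3.58.1 and DESeq2 1.42.0 were used. The scripts were tested on simulated data. Alternatives were other scalings and filters, effective length as an offset, a block for the replicate number, chromosome 8 left out or centred, each library left out, DESeq2, limma voom, and limma on log2(TPM + 1).

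The genes and lists were chosen with earlier results of these data known, and no list was tested as a set. Every one of the 40 genes was accounted for. From each list of pathway and target genes up to 5 called genes with the smallest p were named, besides Kdm6a, Uty and the genes stated as outside this rule. Cell type markers, and genes named to show what a sum or list held, were outside it too. A result for 1 further gene is not reported here. Promoter windows came from RefSeq (GRCm38.p6).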

Additional observations from a re-analysis of the deposited data

How the results depend on the processing

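Ash2l was past the threshold in all 14 alternatives that kept it and Rbbp7 and Kdm6b in 14 of 15, both losing only limma on log2(TPM + 1) (adjusted p = 0.142 and 0.0766). Kmt2c passed in 12 of 15. Over all genes, 1034 were higher and 922 lower in knockout. The length offset gave 511 higher and 340 lower with 1 lower member, DESeq2 650 and 473, and limma on log2(TPM + 1) 250 and 170 with 1 higher and 0 lower members. Without chromosome 8 genes 668 were higher, and with chromosome 8 centred 651. Leaving out each library gave 835 to 888 higher and 633 to 757 lower genes, with 2 members each way, although without knockout replicate 2 Ring1 stood in place of Kmt2c. The labels do not say that replicate numbers pair the libraries, and the correlation of same-numbered deviations was 0.022. With the replicate block 1250 genes were higher and 1127 lower, with 3 members each way, Suz12 (adjusted p = 0.0231) and Ring1 (0.0265) being added. Signs turned only for members that were not called. With the length offset these were Ezh1 -0.39, Ezh2 -0.08, Rbbp4 0.11, Aebp2 -0.0022, Ring1 0.07, Rnf2 0.09, Pcgf3 -0.07, Cbx6 -0.02, Phc1 -0.10 and Rbbp5 0.15. On log2(TPM + 1) they were Ezh1 -0.43, Ezh2 -0.11, Rbbp4 0.07, Aebp2 -0.05, Ring1 0.0075, Rnf2 0.03, Pcgf2 -0.02, Pcgf3 -0.12, Cbx6 -0.06, Phc1 -0.14, Rybp -0.03, Kmt2a -0.02, Wdr5 -0.03 and Rbbp5 0.10. With total counts they were Ezh2 -0.01, Aebp2 -0.02, Rybp -0.01, Kmt2a -0.0028 and Wdr5 -0.01. Without chromosome 8 genes they were Rbbp4 0.002, Rnf2 0.0013, Cbx2 0.01 and Rbbp5 0.01, and with the block Aebp2 -0.0044. Leaving out libraries gave Ezh2 -0.13 to 0.16, Rbbp4 -0.06 to 0.03, Phf1 -0.28 to 0.22, Aebp2 -0.16 to 0.14, Rnf2 -0.13 to 0.08, Pcgf6 -0.14 to 0.49, Cbx2 -0.06 to 0.06, Phc3 -0.45 to 0.22, Rybp -0.10 to 0.13, Yaf2 -0.16 to 0.09, Kmt2a -0.04 to 0.08, Kmt2b -0.12 to 0.04, Wdr5 -0.08 to 0.11, Rbbp5 -0.10 to 0.10 and Dpy30 -0.02 to 0.17. The cause of these turns was not tested. A genotype left with 1 library was assumed to vary like the other. Of the shares, 13 of 180 moved by more than the spread between libraries, all with counts not divided by length. Depth limits Phf19, Pcgf5 and Cbx8 most.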
